A study of Mus musculus with 12 samples.

Results

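Dcdc2a, Atp2b2, Prom2, Gfra2 and Paqr5 were 5 genes of low level in parental mouse embryonic stem (ES) cells and of at least 8-fold higher level in Tet1kd cells. They were taken by name, as 5 of the 36521 genes in the gene tables, and were selected on the size of their Tet1kd over parental fold, so their values in Tet1kd cells are a description and carry no test. Of these tables, 23120 genes had a test in the Tet1kd comparison and 22949 in the Tet2kd comparison. The groups were Tet1kd cells (stable short hairpin RNA against Tet1 from the pSUPER-puro vector), Tet2kd cells (the same vector with a hairpin against Tet2) and parental cells with no knockdown, each with 4 libraries of poly(A)-selected RNA. All 3 groups were the V6.5 line, grown in serum and LIF, the cytokine that holds ES cells undifferentiated. The knockdown cells were electroporated, held in puromycin on SNL76/7-4 feeder cells and picked as single clones, while the parental cells carried no vector. Vector, selection, clone and knockdown therefore cannot be told apart, and the sources used here do not say how many clones gave the 4 libraries of a knockdown. The labels number biological replicates without naming separate cultures, so p-values measure the spread between these libraries, which may be technical.

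Tet1 and Tet2 oxidize 5-methylcytosine in DNA, a step towards its removal, and Tet1 carries a CXXC domain that binds DNA rich in the dinucleotide CpG. Of the 5 proteins, 4 are textbook membrane proteins. Atp2b2 is a plasma membrane calcium pump known from sensory hair cells and cerebellar neurons, Prom2 is a prominin of epithelial membrane protrusions, Gfra2 is the lipid-anchored co-receptor for neurturin, and Paqr5 is a membrane progesterone receptor. Dcdc2a is not a membrane protein but a doublecortin-domain protein that binds microtubules and sits in the primary cilium, so the group is called here by its gene names.

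The libraries held an estimated 15.9 to 39.7 M reads in genes (Tet1kd), 14.4 to 31.1 M (Tet2kd) and 14.7 to 31.3 M (parental). In the authors' deposited table, Tet1 kept 25.2% of its parental mean in Tet1kd cells and Tet2 kept 50.9% in Tet2kd cells. All 9 ES cell markers examined (such as Pou5f1, Nanog and Esrrb) had reads in every group, and their means summed to 148282 normalized counts in Tet1kd cells and 110951 in parental cells. A normalized read count is a read count divided by the size factor of its library, and Tet2kd values are put on the scale of the Tet1kd table throughout. The tables give group means only, and whole reads per library were worked back from them. The recovered libraries are lettered a to d by size factor (a and b deeper, c and d shallower), which ties them to no numbered replicate of the labels.

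Dcdc2a (ENSMUSG00000035910, chromosome 13) had the largest fold of the 5. Its normalized counts were 255, 258, 246 and 261 in the 4 Tet1kd libraries, 2.89, 2.75, 2.97 and 7.79 in the Tet2kd libraries, and 19.6, 11.7, 9.92 and 4.63 in the parental libraries (a to d in each group). The Tet1kd libraries lay close together and far above all others, while the Tet2kd and parental libraries overlapped through Tet2kd library d. The means were 255 ± 6.56 in Tet1kd cells, 4.10 ± 2.46 in Tet2kd cells and 11.5 ± 6.21 in parental cells (SD, n = 4 each). In the authors' deposited table its Tet1kd fold was 22.2, a log2 fold change of 4.47 (called log2 ratio from here on, knockdown over parental).

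Atp2b2 (ENSMUSG00000030302, chromosome 6), which pumps calcium out of the cell, reached the highest count of the 5. Its normalized counts were 340, 317, 354 and 348 in the Tet1kd libraries, 58.6, 53.2, 56.3 and 54.6 in the Tet2kd libraries, and 32.7, 20.4, 18.4 and 44.8 in the parental libraries. No 2 groups overlapped, and Tet2kd cells stood between Tet1kd and parental cells. The share of all genes whose groups do not overlap was not counted, so nothing is read from such separation for this or any later gene. The means were 340 ± 16.0, 55.7 ± 2.33 and 29.1 ± 12.2 in Tet1kd, Tet2kd and parental cells (SD, n = 4 each), and the authors' deposited table gave a Tet1kd fold of 11.7 (log2 ratio 3.55).

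Prom2 (ENSMUSG00000027376, chromosome 2) shapes cholesterol-rich protrusions of the plasma membrane. Its normalized counts were 169, 227, 203 and 286 in the Tet1kd libraries, 12.3, 13.8, 13.3 and 14.0 in the Tet2kd libraries, and 17.4, 16.4, 9.92 and 32.4 in the parental libraries. The Tet1kd libraries lay above all others and spread more widely than those of Dcdc2a, and the Tet2kd libraries fell inside the parental range. The means were 221 ± 49.0, 13.4 ± 0.761 and 19.1 ± 9.52 in Tet1kd, Tet2kd and parental cells (SD, n = 4 each), with a Tet1kd fold of 11.6 in the authors' deposited table (log2 ratio 3.54).

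Gfra2 (ENSMUSG00000022103, chromosome 14) lets neurturin act through the receptor tyrosine kinase Ret. Its normalized counts were 131, 136, 132 and 128 in the Tet1kd libraries, 15.9, 9.18, 20.8 and 14.0 in the Tet2kd libraries, and 10.9, 11.7, 18.4 and 17.0 in the parental libraries. The Tet1kd libraries were tightly grouped, and the Tet2kd and parental libraries were mixed. The means were 132 ± 3.31, 15.0 ± 4.79 and 14.5 ± 3.74 in Tet1kd, Tet2kd and parental cells (SD, n = 4 each), and the Tet1kd fold in the authors' deposited table was 9.09 (log2 ratio 3.18).

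Paqr5 (ENSMUSG00000032278, chromosome 9) belongs to the progestin and adipoQ receptor (PAQR) family of membrane-spanning receptors. Its normalized counts were 98.8, 139, 114 and 155 in the Tet1kd libraries, 25.3, 25.7, 43.0 and 18.7 in the Tet2kd libraries, and 15.3, 13.3, 18.4 and 12.4 in the parental libraries. The lowest Tet2kd library stood just above the highest parental library, and all Tet1kd libraries stood above both groups. The means were 127 ± 24.9, 28.2 ± 10.4 and 14.8 ± 2.67 in Tet1kd, Tet2kd and parental cells (SD, n = 4 each), and the authors' deposited table gave a Tet1kd fold of 8.53 (log2 ratio 3.09).

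**Figure D1:**
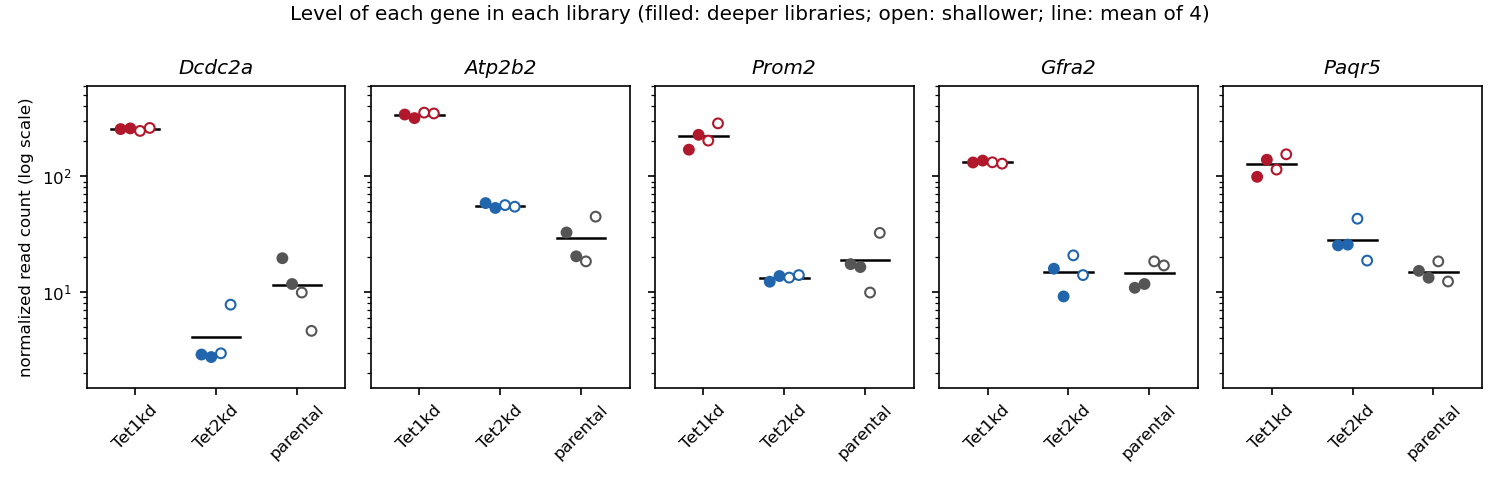
Normalized read count (log axis) of the 5 genes in each of 4 Tet1kd, 4 Tet2kd and 4 parental libraries, with a line at each mean and filled points for the deeper libraries. Every Tet1kd point lies above every other point of its gene (lowest Tet1kd value 98.8, in Paqr5), while 3 of 4 Tet2kd points lie below all parental points in Dcdc2a and all 4 lie above them in Atp2b2 and Paqr5. The gap in Paqr5 is small (lowest Tet2kd 18.7, highest parental 18.4), and the share of all genes that separate so was not counted.

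In the deposited test of Tet1kd cells, 30.4% of all genes tested passed an adjusted p of 0.05, with 15.2% higher and 15.3% lower. A rise of at least 8-fold that passed that test was seen in 0.272% of genes tested (63 genes, 49 of them with a finite fold). By log2 ratio in the authors' deposited table, Dcdc2a ranked 9, Atp2b2 30, Prom2 31, Gfra2 42 and Paqr5 46 among 6983 genes past the threshold with a finite value. Among the 5425 of these with a Tet1kd mean of at least 100 normalized counts, their ranks were 1, 2, 3, 5 and 7, and the immediate-early genes Fos and Fosb stood between them. Of 2033 genes tested with a parental mean of 10 to 30 normalized counts, as all 5 had, 242 were higher past the threshold, and 6 of these by at least 8-fold, the 5 genes among them. The median log2 ratio of the 5 was 3.54 in Tet1kd cells, against -0.03 over all genes tested. These figures restate how the genes were chosen.

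Per kilobase of exon (from GENCODE exons), the 5 genes reached a similar level in Tet1kd cells. The means were 30.8 (Dcdc2a), 26.9 (Atp2b2), 42.7 (Prom2), 37.3 (Gfra2) and 32.0 (Paqr5) normalized counts per kilobase. In Tet2kd cells the same levels were 0.495, 4.41, 2.58, 4.23 and 7.13 in that order of genes, and in parental cells 1.39, 2.30, 3.67, 4.10 and 3.75. Ranked by level per kilobase among 21112 tested genes with a length, the genes lay between the percentiles 48.1 (Atp2b2) and 52.7 (Prom2) in Tet1kd cells and between 19.96 (Dcdc2a) and 29.6 (Gfra2) in parental cells. They thus sat near the middle of the genes tested in Tet1kd cells, not among the abundant ones.

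The comparison of Tet2kd with parental cells was the one whose knockdown libraries had no part in choosing the genes, although its parental libraries did. Atp2b2 was the gene that rose in it. In the authors' deposited table its Tet2kd log2 ratio was 0.94, a fold of 1.92, with an adjusted p of 0.0168. That made 1 of 5 genes past the threshold, against 7.14% of all genes tested, of which 3.85% were higher and 3.29% lower. Only 0.0566% of genes tested rose at least 8-fold in Tet2kd cells. The Tet1kd fold and the Tet2kd fold of Atp2b2 share the parental libraries, and directly compared, its Tet1kd mean was 6.10 times its Tet2kd mean.

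The other genes did not pass that test in Tet2kd cells. Paqr5 had a log2 ratio of 0.93 in the authors' deposited table, nearly that of Atp2b2, with an adjusted p of 0.209. Dcdc2a had the opposite sign, with a log2 ratio of -1.48 and an adjusted p of 0.112 in the authors' deposited table. Its reads were few, 14 in all 4 Tet2kd libraries and 52 in all 4 parental libraries. Prom2 had a log2 ratio of -0.51 (adjusted p = 0.772 in the authors' deposited table) on 50 Tet2kd reads and 73 parental reads. Gfra2 differed least, at 0.04 (adjusted p = 1 in the authors' deposited table) on 55 Tet2kd and 54 parental reads. At this depth a change of Prom2 or Gfra2 smaller than the spread between libraries was not detectable. The median Tet2kd log2 ratio of the 5 was 0.04, against -0.01 over all genes tested.

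With limma on the recovered libraries (log2 of the normalized count plus 0.5, genes with a mean of at least 10), 3 of the 5 passed in Tet2kd cells, against 13.9% of 9509 genes. That mean was taken over the libraries of all 3 groups, and so included the Tet1kd libraries on which the 5 were chosen. Atp2b2 was higher by 1.02 on that log2 scale (SE 0.216, adjusted p = 0.00428) and Paqr5 by 0.85 (SE 0.257, adjusted p = 0.0336). Dcdc2a fell by 1.34 (SE 0.385, limma adjusted p = 0.0258). At means of 4.10 in Tet2kd and 11.5 in parental cells, it met the filter only through its Tet1kd mean of 255. limma also pooled the spread behind each SE and adjusted p over all 3 groups, so the Tet1kd libraries that chose the 5 entered there too. The limma values of all 5 genes, and the count of 3 of 5, are therefore a description and not a test. Prom2 (-0.38, SE 0.285) and Gfra2 (0.02, SE 0.268) did not pass limma, with adjusted p-values of 0.417 and 0.967. The call of Dcdc2a was lost without Tet2kd library a, b or c (limma adjusted p = 0.0617, 0.0579 and 0.0592), and without parental library a or b (0.0933 and 0.0615). The call of Paqr5 was lost without Tet2kd library a, b or c (limma adjusted p = 0.0548, 0.0519 and 0.112) and without parental library a, b or d (0.0557, 0.0730 and 0.0805).

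The Tet2kd value of Dcdc2a was not the same in deeper and shallower libraries, with 2 libraries a group in each class and few reads, and the difference between the classes was not tested. In the deeper libraries alone it fell by 2.24 on the log2 scale (limma adjusted p = 0.00226), and in the shallower libraries alone it had a log2 ratio of -0.45 (limma adjusted p = 0.732). Atp2b2 differed by 1.10 in the deeper libraries (limma adjusted p = 0.00861) and by 0.93 in the shallower ones (limma adjusted p = 0.0860). Paqr5 was at 0.82 in the deeper and 0.89 in the shallower libraries, passing in neither (limma adjusted p = 0.162 and 0.255). These fits also pooled the spread over all 3 groups and are a description.

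The Tet1kd means stood above the Tet2kd means by factors of 62.2 (Dcdc2a), 6.10 (Atp2b2), 16.6 (Prom2), 8.81 (Gfra2) and 4.49 (Paqr5). The order of the groups was thus Tet1kd highest for every gene. Below it came Tet2kd and then parental for Atp2b2 and Paqr5, parental and then Tet2kd for Dcdc2a and Prom2, and no separable order for Gfra2. For Prom2 and Paqr5 in the deposited test, and for Dcdc2a too, the lower pair did not differ past the threshold.

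Markers of other cells also differed between the groups, and their counts stand beside 15.2% of all genes higher and 15.3% lower in Tet1kd cells, and 3.85% higher and 3.29% lower in Tet2kd cells, by the same deposited test. Of 9 markers of feeder fibroblasts, 8 were lower in Tet1kd cells and none higher, with summed means of 3087 normalized counts in Tet1kd cells and 5091 in parental cells, and Dcn (7.71 in Tet1kd, 243 in parental) and Lum (0.414 in Tet1kd, 18.6 in parental) were near 0 in Tet1kd cells, all in the authors' deposited table. In Tet2kd cells, 4 of these 9 were higher and 1 lower, with summed means of 5885 in Tet2kd and 4675 in parental cells on the scale of that comparison. Of 6 epithelial markers, 4 were higher in Tet1kd cells and 1 lower. Krt7 (205 in Tet1kd, 70.9 in parental) and Cldn7 (1614 in Tet1kd, 677 in parental) were among the higher ones, and Krt19 (82.4 in Tet1kd, 229 in parental) was the lower one, as the authors' deposited table lists them. Of 6 primitive endoderm markers 3 were lower, of 6 trophectoderm markers 3 were lower and 1 higher, and of 5 measured neural markers 4 were lower in Tet1kd cells. In Tet2kd cells, 3 of the 6 primitive endoderm markers were lower too, and 1 of the 6 trophectoderm markers was lower. The neural and the epithelial markers each had 1 higher and 1 lower in Tet2kd cells. The part of these shifts in the levels of the 5 genes was not tested. In RNA from whole cultures, more cells of a type and more RNA per cell cannot be told apart.

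The start regions of the genes are shown because CpG-rich DNA is what the CXXC domain of Tet1 binds. RefSeq (GRCm38.p6) gave the 300 bases from 250 before to 50 after the start for 4 of the 5 genes, and Gfra2 had no entry. Each is written 5′ to 3′ on the strand of its gene, with every CpG in capitals. They lie at chr13:25055754-25056053 (plus strand, Dcdc2a), chr6:114042031-114042330 (minus strand, Atp2b2, the outermost of 3 listed starts), chr2:127541368-127541667 (minus strand, Prom2) and chr9:62026741-62027040 (minus strand, Paqr5).
Dcdc2a: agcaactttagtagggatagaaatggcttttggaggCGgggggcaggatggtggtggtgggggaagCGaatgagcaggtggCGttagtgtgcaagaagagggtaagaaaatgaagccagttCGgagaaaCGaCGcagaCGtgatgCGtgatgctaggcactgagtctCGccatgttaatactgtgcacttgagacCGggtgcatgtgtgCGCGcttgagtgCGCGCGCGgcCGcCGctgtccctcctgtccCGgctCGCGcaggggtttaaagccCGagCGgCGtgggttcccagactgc
Atp2b2: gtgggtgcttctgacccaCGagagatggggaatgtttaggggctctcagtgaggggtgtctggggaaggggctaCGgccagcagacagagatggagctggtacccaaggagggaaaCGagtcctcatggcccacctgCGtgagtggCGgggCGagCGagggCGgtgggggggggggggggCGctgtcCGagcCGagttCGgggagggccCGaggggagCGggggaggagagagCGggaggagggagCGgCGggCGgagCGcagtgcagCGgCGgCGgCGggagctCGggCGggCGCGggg
Prom2: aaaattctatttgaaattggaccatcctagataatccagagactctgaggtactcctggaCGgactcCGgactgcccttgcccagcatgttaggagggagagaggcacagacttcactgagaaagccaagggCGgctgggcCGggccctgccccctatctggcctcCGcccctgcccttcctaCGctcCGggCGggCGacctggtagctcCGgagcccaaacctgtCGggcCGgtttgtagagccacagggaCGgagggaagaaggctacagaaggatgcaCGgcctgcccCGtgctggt
Paqr5: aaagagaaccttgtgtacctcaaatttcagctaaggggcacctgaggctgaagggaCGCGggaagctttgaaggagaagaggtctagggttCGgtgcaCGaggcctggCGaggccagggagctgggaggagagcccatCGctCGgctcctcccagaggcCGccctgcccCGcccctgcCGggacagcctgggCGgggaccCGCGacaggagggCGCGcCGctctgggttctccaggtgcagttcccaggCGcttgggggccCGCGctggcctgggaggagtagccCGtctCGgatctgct

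The Dcdc2a window held 24 CpG, the Atp2b2 window 27, the Prom2 window 15 and the Paqr5 window 21. The other 2 starts of Atp2b2 held 8 and 12. Over 32851 windows of this kind in 27025 genes, the median was 7 CpG and the upper quartile 20. The windows of Dcdc2a, the outer Atp2b2 start and Paqr5 lay above that quartile. Prom2 and the other 2 Atp2b2 starts lay between it and the median. Which Atp2b2 start the reads came from was not tested, and the first 10 exon bins at its 5′ end were at 0 in the Tet1kd comparison. The ratio of observed to expected CpG was 0.987 for Dcdc2a, 0.846 for Atp2b2, 0.532 for Prom2 and 0.621 for Paqr5. The GC box GGGCGG, searched on both strands, was found 3 times each in the Atp2b2, Prom2 and Paqr5 windows and not in that of Dcdc2a, and 35.7% of all windows held it. None of the 4 windows held the AP-1 site TGACTCA (5.20% of all windows), the E-box CACGTG (7.15%), the TATA box TATAAA (13.6%) or the EGR site GCGTGGGCG (0.612%), each on both strands. These matches describe the letters of the window only, and methylation and binding at these starts were not analysed here.

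In all 5 genes the exon bin with the most reads lay towards the 3′ end, bins being the pieces into which the exon tables divide a gene. The largest bin held 61.7% of the summed bin means of Dcdc2a in the Tet1kd comparison and 60.6% in the Tet2kd comparison (bin 15 of 15). It held 35.6% and 31.4% for Atp2b2, 48.3% and 57.2% for Prom2, 32.7% and 26.3% for Gfra2, and 28.5% and 33.0% for Paqr5, in the same order of comparisons. Each of these bins lay at or next to the 3′ end, except in Atp2b2. There it was bin 3 of 43, and bins 1 and 2, nearer the 3′ end, were at 0. The same bin was the largest in both comparisons for every gene. In Atp2b2, 10 bins at the 5′ end were listed at 0 in the Tet1kd comparison and 9 in the Tet2kd comparison.

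No bin of the 5 genes passed the deposited test of bin use. In the Tet1kd comparison 0 of 11 (Dcdc2a), 25 (Atp2b2), 20 (Prom2), 11 (Gfra2) and 10 (Paqr5) tested bins passed, where 2.56% of 195843 bins did, and nothing is read from this because the same contrast chose the genes. In the Tet2kd comparison 0 of 19 tested bins passed, where 2.45% of 193091 bins did, and 1, bin 7 of Paqr5, had an unadjusted p under 0.05 in the authors' deposited table (DEXSeq adjusted p = 0.164). The bins tested in Tet2kd cells were 11 in Atp2b2, 3 in Gfra2 and 5 in Paqr5, and none in Dcdc2a or Prom2, whose bins carried no test in the authors' deposited table. No other tool could be run on the bins.

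**Figure D2:**
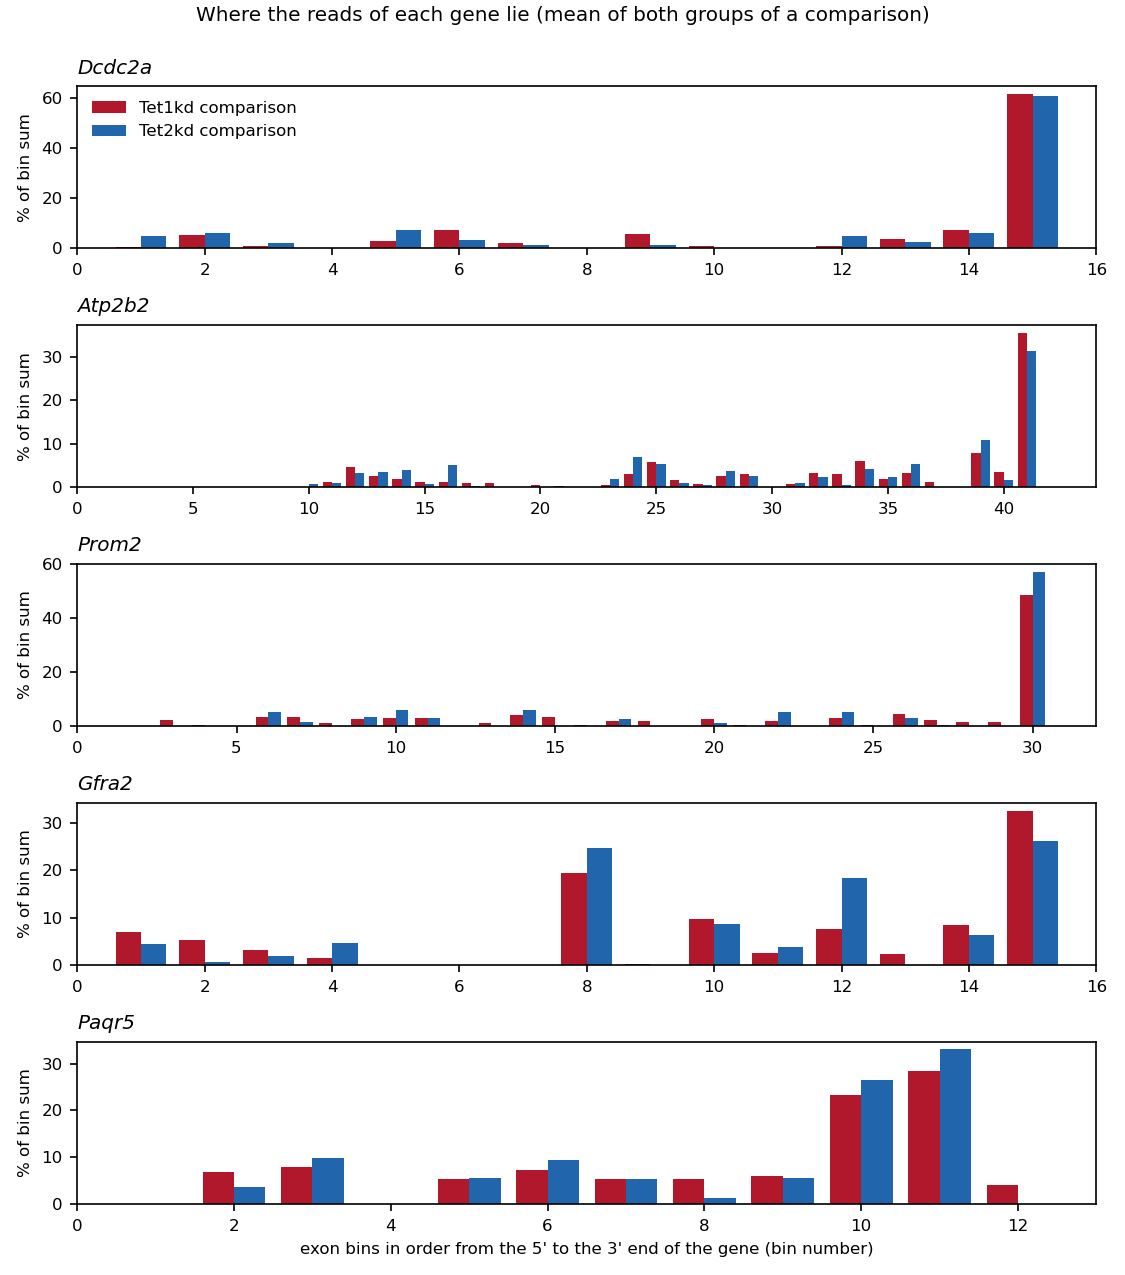
Share of the summed bin means (percent) that falls in each exon bin of the 5 genes, in order from the 5′ to the 3′ end, with bars for the Tet1kd comparison and the Tet2kd comparison (mean over both groups of each). The tallest bar stands at or near the 3′ end in every gene and at the same bin in both comparisons, with 61.7% in Dcdc2a and 28.5% in Paqr5 in the Tet1kd comparison.

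Stretches shared with other genes were counted along the transcripts, since reads from them could be placed in either gene. Of the 35-base windows of their transcripts, 94 of 8223 (1.14%) in Dcdc2a, 24 of 12696 (0.189%) in Atp2b2, 0 of 5179 in Prom2, 57 of 3542 (1.61%) in Gfra2 and 1 of 3947 in Paqr5 were also found in another gene. The shared windows of Dcdc2a occurred in 2400 other genes and those of Gfra2 in 3010. Where they lie relative to the reads was not analysed, so these are shares of sequence and not of reads. For Atp2b2, 22 of the 24 were shared with its paralog Atp2b3, which had 4.74 ± 0.689 normalized counts in Tet1kd cells and 2.28 ± 2.74 in parental cells (SD, n = 4 each). No gene that overlaps the 5 had a test in the tables.

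Relatives and partners of the 5 proteins were then compared in 5 lists. Of 53 genes measured, 15 were higher and 6 lower in Tet1kd cells, and 32 did not pass in the authors' deposited table. Their median log2 ratio was 0.18, against -0.03 over all genes tested. The share past the threshold, 21 of 53, may be read beside the 30.4% of all genes. By direction, 15.2% of all genes were higher and 15.3% lower, and these shares also stand beside the counts of each list below. In Tet2kd cells 4 were higher and 2 lower, with a median of 0.10, and these 6 of 53 stand beside 7.14% of all genes by the same test (3.85% higher and 3.29% lower). By the second test in the authors' deposited table, 39.2% of all genes passed in Tet1kd cells and 18.2% in Tet2kd cells, and limma called 48.7% of 9509 genes in Tet1kd cells.

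Of the doublecortin family, 5 of 9 genes were measured, and none was higher past the threshold in Tet1kd cells. Dclk1, a microtubule-binding kinase, fell in Tet1kd cells. It had 16.7 ± 7.61 normalized counts in Tet1kd cells and 39.4 ± 6.22 in parental cells (SD, n = 4 each), a log2 ratio of -1.23 with an adjusted p of 0.00603 in the authors' deposited table. The other 4 did not pass in Tet1kd cells, and none of the 5 passed in Tet2kd cells.

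Of 16 calcium pumps, exchangers and partners, 6 were higher and 1 lower in Tet1kd cells. The endoplasmic reticulum pump Atp2a3 led the higher ones, with means of 1653 in Tet1kd and 600 in parental cells, a log2 ratio of 1.46 and an adjusted p of 2.23e-39 in the authors' deposited table. The sodium-calcium exchanger Slc8a2 (0.78, adjusted p = 4.07e-05) and the calcium sensor Calm3 (0.37, adjusted p = 8.84e-05) also rose in the authors' deposited table. None of the other 3 plasma membrane pumps was higher past the threshold. Atp2b4 fell in Tet1kd cells, at 327 ± 33.2 in Tet1kd and 415 ± 17.0 in parental cells (SD, n = 4 each; log2 ratio -0.34, adjusted p = 0.00977 in the authors' deposited table). Atp2b1 had a log2 ratio of -0.18 that did not pass (adjusted p = 0.109 in the authors' deposited table). In Tet2kd cells 0 were higher and 2 lower, the exchanger Slc8a3 (-2.18, adjusted p = 0.01004) and Nptn, a partner of the plasma membrane pumps (-0.36, adjusted p = 0.00935, both in the authors' deposited table). Slc8a3 had 17 reads in the 4 Tet2kd libraries and 78 in the 4 parental libraries.

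Of 9 prominin and microvillus genes, 3 were higher and 1 lower in Tet1kd cells. Prom1, the paralog of Prom2 known as CD133, had normalized counts of 535, 505, 411 and 408 in the Tet1kd libraries, 378, 367, 337 and 335 in the Tet2kd libraries, and 248, 261, 249 and 230 in the parental libraries. The 3 groups did not overlap. Its log2 ratio was 0.91 in Tet1kd cells (adjusted p = 3.01e-10) and 0.52 in Tet2kd cells (adjusted p = 0.00165) in the authors' deposited table. The sialomucin Podxl rose in both, by 0.61 in Tet1kd (adjusted p = 1.28e-08) and 0.30 in Tet2kd cells (adjusted p = 0.0288) in the authors' deposited table. The caveolae protein Cav1 fell in Tet1kd cells (-0.57, adjusted p = 2.07e-05 in the authors' deposited table). In Tet2kd cells, Prom1 and Podxl were the 2 of 9 that passed, whereas Prom2 did not.

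Of 10 measured genes of the GDNF family and its receptors, 3 were higher and 1 lower in Tet1kd cells, and none passed in Tet2kd cells. Ret, the signalling partner of Gfra2, had normalized counts of 96.6, 109, 90.0 and 126 in the Tet1kd libraries, 71.6, 54.1, 54.9 and 45.2 in the Tet2kd libraries, and 46.5, 50.1, 53.8 and 57.1 in the parental libraries. Its Tet1kd libraries stood above all others, and its Tet2kd and parental libraries overlapped. Its log2 ratio was 1.02 in Tet1kd cells (adjusted p = 2.21e-05) and 0.12 in Tet2kd cells (adjusted p = 0.83) in the authors' deposited table. The adhesion molecule Ncam1 (0.69, adjusted p = 8.93e-10) and the proteoglycan Sdc3 (0.57, adjusted p = 5.90e-05) also rose in Tet1kd cells in the authors' deposited table. The ligand Gdnf fell on few reads, 4 in the 4 Tet1kd libraries and 53 in the 4 parental libraries (adjusted p = 0.000176 in the authors' deposited table). Neurturin (Nrtn), the ligand Gfra2 prefers, had means of 45.2 in Tet1kd and 40.8 in parental cells and did not pass (adjusted p = 0.792 in the authors' deposited table).

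Of 13 PAQR and progesterone-binding genes, 3 were higher and 2 lower in Tet1kd cells. Paqr8, a membrane progesterone receptor like Paqr5, had normalized counts of 392, 401, 413 and 363 in the Tet1kd libraries, 230, 235, 206 and 204 in the Tet2kd libraries, and 123, 135, 140 and 161 in the parental libraries. The 3 groups did not overlap and kept the order seen for Paqr5. Its log2 ratio was 1.49 in Tet1kd cells (adjusted p = 4.91e-26) and 0.64 in Tet2kd cells (adjusted p = 0.000323) in the authors' deposited table. Adipor2, an adiponectin receptor, rose in both knockdowns, by 0.39 in Tet1kd (adjusted p = 3.02e-05) and by 0.40 in Tet2kd cells (adjusted p = 8.77e-05) in the authors' deposited table. The nuclear progesterone receptor Pgr rose in Tet1kd cells (0.85, adjusted p = 0.0212 in the authors' deposited table), a call that limma lost without Tet1kd library b or c or parental library d (adjusted p = 0.0561, 0.0526 and 0.0698). Mmd2 (-1.69, adjusted p = 0.00548) and Pgrmc2 (-0.29, adjusted p = 0.00779) fell in Tet1kd cells in the authors' deposited table. Paqr6 (0.77, adjusted p = 0.122) and Paqr7 (0.08, adjusted p = 1) did not pass in Tet1kd cells in the authors' deposited table.

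**Figure D3:**
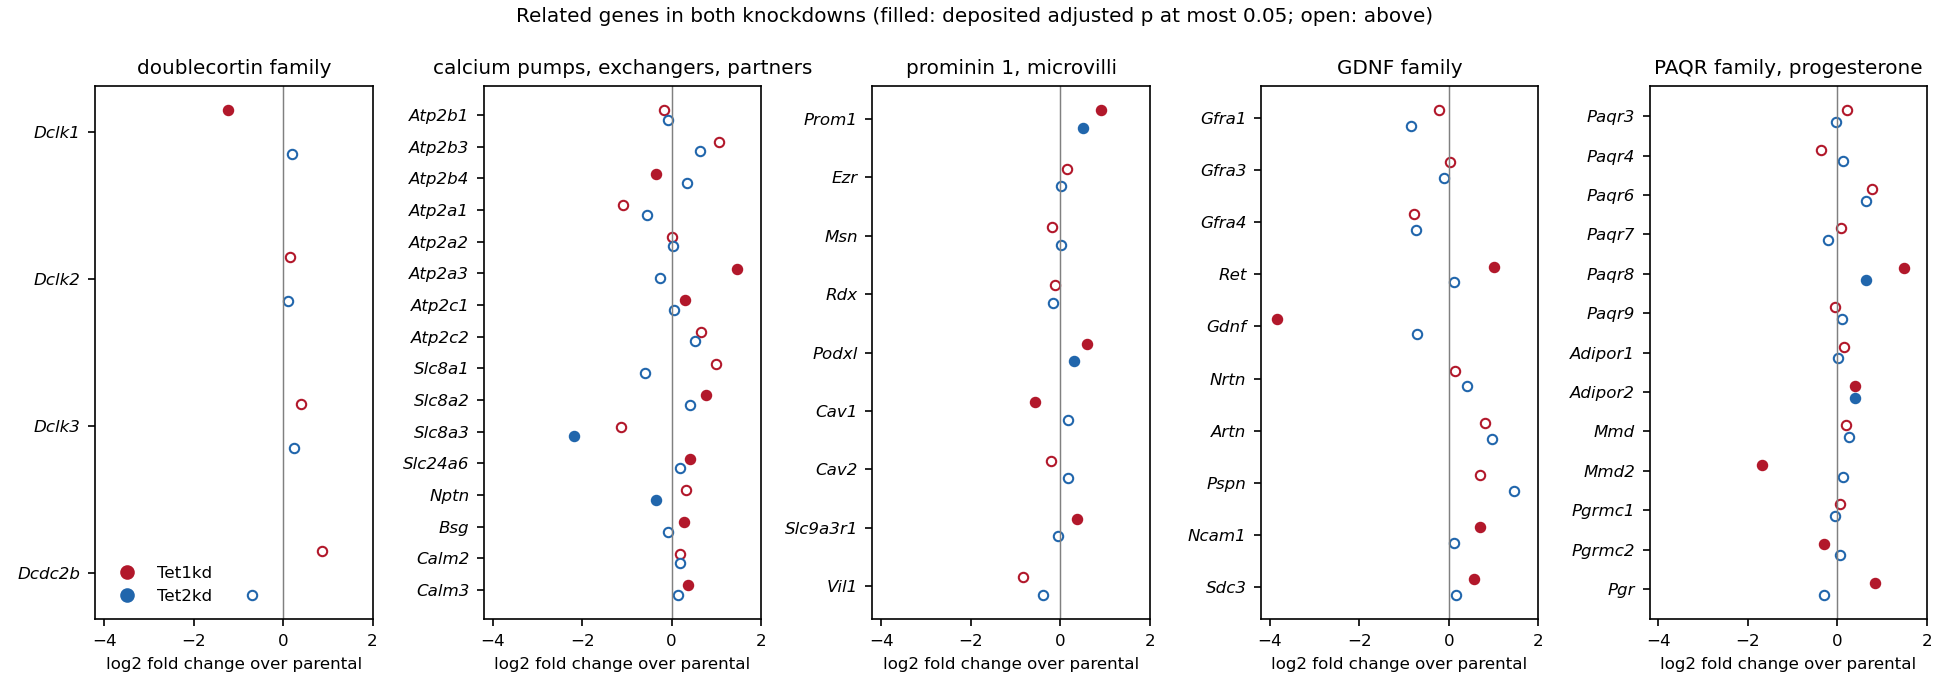
Log2 fold change over parental cells (x axis) of the related genes with a finite value in both knockdowns, with a filled circle where the deposited adjusted p was at most 0.05, in 5 lists. Prom1, Podxl, Paqr8 and Adipor2 are filled to the right of 0 in both knockdowns, while Ret and Atp2a3 are filled to the right in Tet1kd cells only and Gdnf lies far to the left (-3.85) in Tet1kd cells.

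Genes beside the 5 were compared to see whether the differences extended along the chromosome, using the gene order of GENCODE (GRCm38). Of the 30 nearest tested genes, 3 on each side, 7 were higher and 2 lower in Tet1kd cells, and 21 did not pass in the authors' deposited table. Their median log2 ratio was 0.13. In Tet2kd cells 0 were higher and 2 lower, beside 3.85% and 3.29% of all genes. The share past the threshold in Tet1kd cells, 9 of 30, was close to that of all genes (30.4%, with 15.2% higher and 15.3% lower). None of the neighbours reached the fold of the gene it flanks among those past the threshold. The choice of the 5 on their Tet1kd fold made this nearly certain beforehand, so nothing is read from it.

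Mrs2, a mitochondrial magnesium channel beside Dcdc2a, rose in Tet1kd cells (log2 ratio 0.56, adjusted p = 2.00e-05), and Nrsn1 on the other side did not pass (-0.41, adjusted p = 0.653, in the authors' deposited table). Beside Atp2b2, neither the coat protein gene Sec13 (-0.17, adjusted p = 0.316) nor the GABA transporter gene Slc6a11 (-0.06, adjusted p = 1) passed in Tet1kd cells in the authors' deposited table. Beside Prom2, neither the calcium sensor gene Kcnip3 (0.38, adjusted p = 0.337) nor Zfp661 (0.35, adjusted p = 0.0636) passed in Tet1kd cells in the authors' deposited table. Zfp661 did pass with limma (0.35, adjusted p = 0.0245).

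The adaptor gene Dok2 beside Gfra2 fell in Tet1kd cells (-0.67, adjusted p = 0.00594) and in Tet2kd cells (-0.50, adjusted p = 0.0238) in the authors' deposited table. Its Tet2kd call was not made by limma (adjusted p = 0.0522). Gm16549 on the other side of Gfra2 had 1.21 normalized counts in Tet1kd cells and 0.196 in parental cells. The kinesin gene Kif23 beside Paqr5 rose in Tet1kd cells (0.32, adjusted p = 0.000818), and Glce did not pass (0.03, adjusted p = 0.968, in the authors' deposited table).

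**Figure D4:**
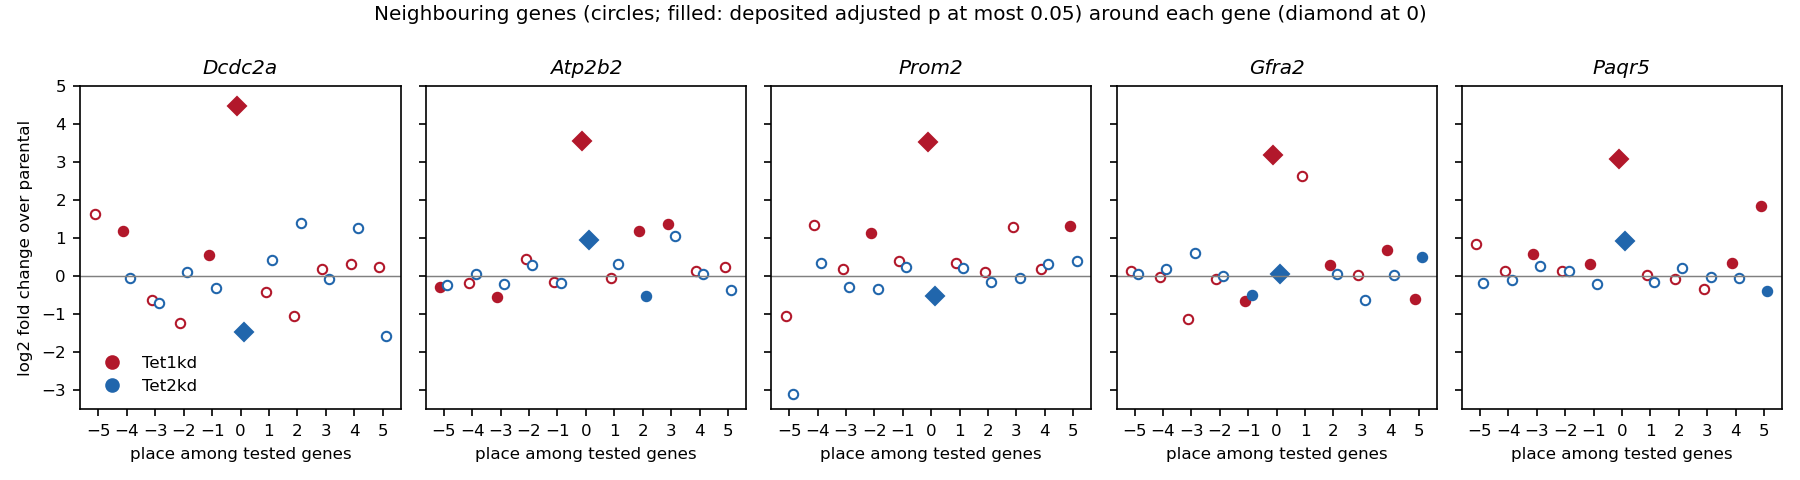
Log2 fold change over parental cells (y axis) of the 5 tested genes on each side of Dcdc2a, Atp2b2, Prom2, Gfra2 and Paqr5 (circles, filled where the deposited adjusted p was at most 0.05) and of the gene itself (diamond at place 0) in Tet1kd and Tet2kd cells. The Tet1kd diamonds (3.09 to 4.47) stand above every circle of their panel, which the choice of the genes on that fold made nearly certain beforehand.

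Genes whose pair of log2 ratios in the authors' deposited table lay nearest to that of a member were looked up among 14687 genes. Each of these had a mean above 10 normalized counts in both of the 2 comparisons, which share the parental libraries. Nearest to Dcdc2a was the kinase gene Stk39 (distance 1.82 log2 units), so none of the genes searched had a closely similar pair. Dcdc2a itself did not meet that mean in the Tet2kd comparison (3.77 in Tet2kd and 10.5 in parental cells on the scale of that comparison). Genes as low as Dcdc2a there were left out of the search, so nothing is read from the lack of a near gene. Nearest to Atp2b2 was Fos (0.152), nearest to Prom2 was Stk39 (0.613), nearest to Gfra2 was Ttc9 (0.289) and nearest to Paqr5 was Fosb (0.239). Next after these came Cubn (2.22) and Cacng5 (2.26) for Dcdc2a, Fosb (0.477) and Slc23a1 (0.606) for Atp2b2, Cacng5 (0.925) and Ttc9 (0.947) for Prom2, Grin1 (0.378) and Egr2 (0.415) for Gfra2, and Slc23a1 (0.242) and Fos (0.385) for Paqr5. Fos had means of 22809 in Tet1kd cells and 2072 in parental cells, so a near pair of folds went with a far higher level.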

How the data were processed

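Poly(A)-selected RNA of 12 samples was sequenced on SOLiD, per the labels' protocols. Reads were aligned with TopHat2 (2.0.0), handled with SAMtools (0.1.18) and compared with DESeq, on mm9 and NCBIM37, per the submitters' processing notes. Per the file headers, the authors deposited gene tables of mean signal (normalized counts), ratio (fold), log2 ratio, p-value and adjusted p-value, and DEXSeq exon tables with mean signal, log2 ratio, p-value and a dispersion score. The exon tables' log2 ratio runs parental over knockdown and was turned round. The sources used here do not state how reads were counted or whether by strand.

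Whole reads per library were recovered as the sets of 4 whole numbers that give the deposited mean to 15 digits, for means up to 1000. This gave 16454 of 16476 Tet1kd, 16546 of 16558 Tet2kd and 16898 of 16910 parental genes. Above a mean of 60, except for the 5 genes, each library had to lie within 60% of the mean, which favours small spreads. Tested on simulated data, this answered 149 of 150 Tet1kd, 147 of 150 Tet2kd and 149 of 150 parental sums rightly and 0 wrongly. The simulated reads had a set spread that was not fitted to these data, so genes of wide spread were not tried. The search without the 60% limit above a mean of 60, as used for the 5 genes in Tet1kd cells, was not simulated either. limma (3.58.1, R 4.3.3) was tested on simulated data for Tet2kd against parental over 9509 genes: it called 84 of 100 genes changed 2-fold and 52 of 100 changed 1.5-fold, with 8 false calls. The simulation gave every gene the same fixed spread beyond counting noise, not fitted to these data. These shares may therefore not hold for genes of low level such as the 5.

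The main test was the first deposited adjusted p at 0.05. The planned edgeR and DESeq2 fits were not run because the tables hold no counts per sample. Neighbours were to be taken from the exon tables, which hold no coordinates, and came from GENCODE instead. The 5 genes and all gene lists were chosen with earlier results of these data known, and 1 listed gene is not reported here. Genes named were the 5, up to 4 genes past the threshold per list and comparison, 7 set relatives, the nearest neighbour on each side and the 3 nearest in fold pattern. Alternatives were the second deposited test, a mean of at least 10, limma (pseudocount 0.5 or 2, a depth class term, each depth class alone, each library left out) and 5 neighbours a side. The depth class settings were chosen after seeing the data.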

Additional observations from a re-analysis of the deposited data

Results flagged for a closer look

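In Tet2kd cells 1 library stood apart from its group for Dcdc2a. Library d had 7.79 normalized counts, from 5 reads, while the other 3 libraries had 2.75 to 2.97 from 2 to 4 reads each. It lay inside the parental range of 4.63 to 19.6. The gap exceeded the limit used for groups of 4 libraries, a limit that chance passes in about 1 of 20 groups, and 15 groups were examined (5 genes in 3 groups). That rate may not hold for libraries of 2 to 5 reads, so library d is not shown to differ from the others. Without that library the limma log2 fold change of Dcdc2a in Tet2kd cells over parental cells was -1.67 (adjusted p = 0.00709), against -1.34 (adjusted p = 0.0258) with all 4, and over the alternatives that could be run the adjusted p lay between 0.00226 and 0.732. Dcdc2a met the limma filter on mean level only through its Tet1kd libraries, so these limma values are a description.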

How the results depend on the processing

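No paired analysis was possible because the deposited tables and the recovered libraries carry no replicate numbers. Of the 5 genes, 1 passed in Tet2kd cells in the main test and by the second deposited test, against 3 with limma, with a pseudocount of 2 and with a depth class term, 2 in the deeper and 0 in the shallower libraries alone, and 1 to 3 with each library left out. Of all genes, 7.14% passed in the main test, 18.2% by the second test and 13.9% of 9509 with limma. Of these 9509, 790 were higher and 557 lower with a pseudocount of 2, and 1279 and 948 with a depth class term. In the deeper libraries alone 441 were higher and 294 lower, and in the shallower 311 and 204. With a Tet2kd or parental library left out, 581 to 679 were higher and 404 to 466 lower. Of the related genes, 21 of 53 passed in Tet1kd cells, against 12 to 15 of 29 with each library left out of limma, and 6 of 53 in Tet2kd cells, against 12 by the second test. With a Tet1kd or parental library left out of limma, 2234 to 2322 of 9509 genes were higher and 2000 to 2107 lower in Tet1kd cells. Of the 30 neighbours, 9 passed in Tet1kd cells, against 5 of 10 with limma, with a pseudocount of 2 and with a depth class term, 4 to 6 with each library left out and 16 of 50 with 5 a side. Beside these counts stand 48.7% of 9509 genes with limma. Of the 9509, 2439 were higher and 2225 lower with a pseudocount of 2, and 2767 and 2544 with a depth class term. In Tet2kd cells 2 passed, against 8 by the second test (18.2% of all genes), 0 of 10 with limma and with a pseudocount of 2, 0 to 1 with each library left out and 4 of 50 with 5 a side. limma covered fewer of these genes because it took those with a mean of at least 10 and because means above 1000 were not recovered. That mean ran over all 3 groups, and Dcdc2a reached it only through its Tet1kd level. The spread used by limma ran over all 3 groups as well, so its counts of the 5 genes are a description.

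Small values changed sign. Gfra2 in Tet2kd cells was at -0.0493 in the shallower libraries alone, -0.0252 without Tet2kd library a, -0.15 without c, and -0.10 and -0.0644 without parental library a and b. Ret in Tet2kd cells was at -0.0148 without Tet2kd library a, and Paqr7 in Tet1kd cells at -0.17 without Tet1kd library d and -0.11 without parental library a. The cause was not tested. For named genes, 488 values kept their direction and side of the threshold, 46 came past it, 13 no longer passed and 8 changed sign. Depth limits the Tet2kd values of Dcdc2a, Prom2 and Gfra2 most, with 14, 50 and 55 reads in 4 libraries.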
